A study of Arabidopsis thaliana with 28 samples.

Results

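The genes described here had higher transcript levels in Arabidopsis thaliana seedlings that overexpress the zinc finger factor ZAT10 than in their wild-type (WT) control, and lower levels in WT seedlings held in the cold than in WT seedlings kept warm. They were chosen from the measured values. A probe set of 1 annotated gene was taken where its mean log2 signal was at least 0.7 higher in the ZAT10 line than in the control and at least 0.7 lower in the cold than in the warm, with a log2 signal over 5 in both ZAT10 arrays and both warm WT arrays. Genes of the ATG8 family and those with UGT or CYP symbols were left out. The table held 22746 probe sets beside the array controls, of which 13513 had 1 gene and 6162 of those were over the level limit and outside the excluded families. These 6162 are called eligible below, and 92 of them were members. A difference of 1 on the log2 scale is a 2-fold difference in signal.

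The arrays measured RNA from whole aerial parts of Col-0 seedlings grown for 12 days in constant light, in 14 groups of 2 arrays. The ZAT10 line and 10 more lines, each overexpressing 1 factor (the heat shock factor HSFC1, the cytokinin response factors CRF2 and CRF3, the MYB factors MYB44 and MYB73, the AP2-type factors DEAR1, ERF5 and RAV1, the CCCH zinc finger factor CZF1, or a zinc finger factor labelled ZF), were grown at 22°C in about 100 µmol of light beside a WT control. The cold-treated WT group spent 24 h at 4°C in about 30 µmol of light, so temperature and light changed together, and its own warm WT group stayed at 22°C. No source used here names the promoter behind the transgenes or the number of independent lines in a group, and the p-values measure only the spread between arrays that the labels call biological replicates. Since whole shoots were sampled, fewer cells of a type and less RNA per cell cannot be told apart in any value below.

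ZAT10 (also STZ) is a C2H2 zinc finger protein with an EAR motif, a short stretch that recruits transcriptional repressors. It is known as a repressor whose own transcript accumulates in cold, drought, salt and high light. Cold also slows leaf growth, and genes for cell wall loosening, hormone response and growth are known to be among those that lose transcript in chilled leaves.

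The transgene was visible on the array. The ZAT10 probe set averaged 12.94 ± 0.02 in the ZAT10 line, against 4.08 ± 0.01 in the WT control (log2 signal, SD, n = 2), and 6.40 ± 0.11 in the cold, against 4.32 ± 0.35 in the warm. In the other lines it was between 3.56 and 4.74 in 15 of 20 arrays, and higher in CRF3 replicate 2 (8.45), HSFC1 (6.45 and 5.05) and CZF1 (5.68 and 5.20), and its part in the results of those lines was not tested. The other 10 transgenes were not checked here. The array medians over all probe sets lay between 5.33 and 5.48 in 22 arrays and between 5.77 and 5.84 in the other 6, which were the CZF1, cold and warm arrays. Each difference in the rule stays within 1 of these sets, whereas a level compared between the sets carries that offset. The leaf marker RCA, the Rubisco activase, was between 13.18 and 14.24 in all 28 arrays. Among the root markers, the root hair expansins EXPA7 and EXPA18 reached at most 6.42 and 6.07, while PYK10, a beta-glucosidase of the ER bodies of roots and seedlings, was between 11.15 and 13.24 in every array. The 3' minus 5' difference of the GAPDH probe sets, a sign of RNA quality, was 1.48 and 0.99 in the ZAT10 arrays against 0.75 and 0.91 in the control arrays, and 1.30 and 1.23 in the cold arrays against 1.11 and 1.83 in the warm arrays, and its part in the results was not tested.

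Of the eligible probe sets, 400 (6.49%) met the ZAT10 criterion, 979 (15.9%) met the cold criterion and 92 (1.49%) met both. Both ZAT10 arrays lay above both control arrays in all 92 members, as in 43.2% of eligible probe sets, and both cold arrays lay below both warm arrays in all 92, as in 40.1% of eligible probe sets. These separations follow from the choice of members and are given without a test. The median difference was 0.99 for ZAT10 minus control, with a range of 0.70 to 2.21, and -1.06 for cold minus warm, with a range of -4.14 to -0.70. Both differences reached a size of 1 in 30 members and a size of 2 in 2 members, the lectin family gene AT3G16530 and AT4G23680. Just inside the ZAT10 limit were AT4G28240 at 0.70 and AT3G26890 and AT3G56060 at 0.71, and just outside were AT3G19030, AT5G03440 and AT5G52970 at 0.69. Just inside the cold limit were AT4G22490 at -0.70 and AT5G02480 and AT4G25260 at -0.71, and just outside were CYTC6A at -0.69, AT1G32920 at -0.67 and AT2G16630 at -0.66.

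**Figure D1:**
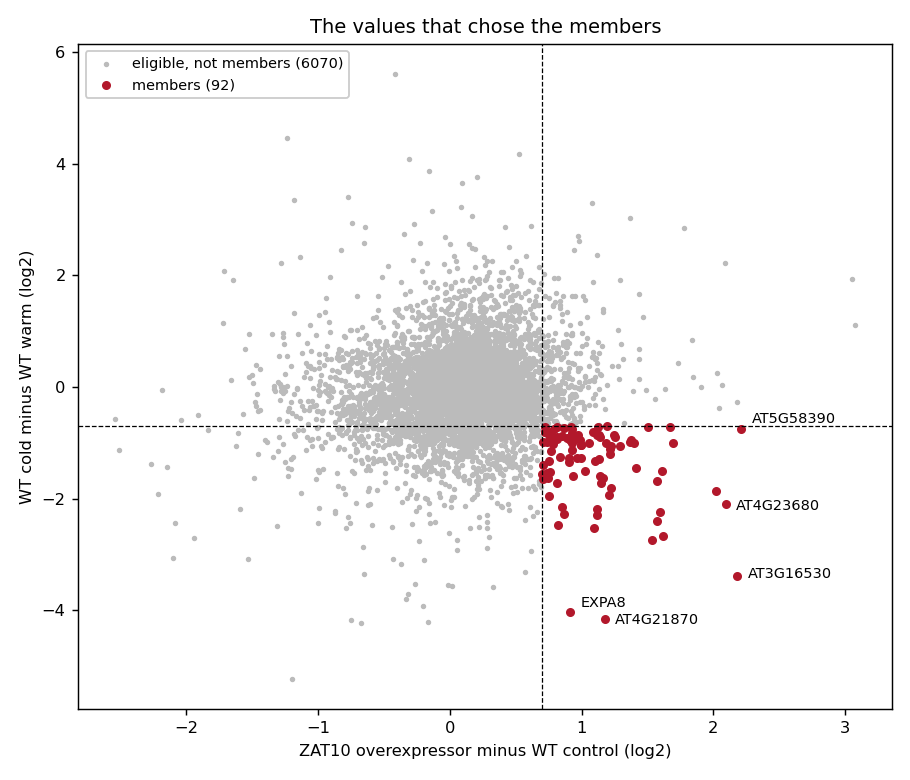
ZAT10 overexpressor minus WT control (x axis, log2) against WT cold minus WT warm (y axis, log2), 1 point per eligible probe set, with members in red and the limits of 0.7 as dashed lines. Most of the 92 members lie close to the limits, and 30 lie beyond 1 on both axes.

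By what their products are known to do, 42 members fell into 7 role groups assigned once the members were known, and 50 had no role stated here. The roles run from secreted wall and defence proteins, the largest with 14 members, through glutaredoxins, response regulators, transcription factors and chaperones to signalling proteins and metabolic enzymes.

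The secreted group held lectins, peroxidases, small defence proteins, lipid transfer proteins and wall enzymes. Its 14 members were 0.74 to 2.21 higher in ZAT10 (median 0.92) and 0.70 to 4.03 lower in the cold (median difference -1.26). AT3G16530, of the legume-type lectins, which bind sugars, had 9.25 and 9.49 in the ZAT10 arrays, 7.43 and 6.95 in the control, 5.89 and 4.35 in the cold and 8.38 and 8.61 in the warm. The groups of each pair do not overlap, and the differences were 2.18 and -3.38. AT5G64120 (PRX71), a class III peroxidase of the cell wall, had 7.74 and 8.23 in ZAT10, 5.79 and 6.14 in the control, 4.88 and 5.31 in the cold and 6.86 and 7.05 in the warm. A peroxidase of the same class, AT5G58390, had the largest ZAT10 difference of all members, 2.21, with 6.20 and 6.79 in ZAT10 and 4.14 and 4.43 in the control. In the cold it was only slightly lower, at 5.75 and 5.58 against 6.36 and 6.47 in the warm. EXPA8, an expansin that loosens cell walls, had the reverse balance. It read 8.03 and 8.19 in ZAT10 against 7.29 and 7.11 in the control, and 4.67 and 3.67 in the cold against 8.53 and 7.87 in the warm, a difference of -4.03.

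The secreted group also held small proteins and enzymes known in defence. AT2G38870, a proteinase inhibitor of the PR-6 class, had 10.99 and 10.94 in ZAT10 against 9.97 and 10.29 in the control, and 8.56 and 9.01 in the cold against 9.97 and 10.10 in the warm. AT1G66100, of the thionin family of small antimicrobial proteins, had 9.26 and 9.50 in ZAT10 against 8.43 and 8.70 in the control, and 7.62 and 7.75 in the cold against 9.81 and 9.01 in the warm. AT4G16260, of the beta-1,3-glucanases, which cut the callose-type glucan of walls, had 9.06 and 8.71 in ZAT10 against 7.49 and 8.04 in the control, and 6.50 and 6.41 in the cold against 7.43 and 7.21 in the warm. For the inhibitor and the glucanase the ZAT10 arrays also exceeded both warm WT arrays, whereas for the thionin gene the warm arrays spanned the ZAT10 values. AT3G16670, of the Ole e 1 family first known from pollen, was lower in the cold, at 9.43 and 8.72 against 10.17 and 9.78 in the warm. Its control arrays, at 8.35 and 8.43, were below the cold arrays. Cold and control lie in different sets of arrays, and the median of cold minus control was 0.41 over eligible probe sets. In ZAT10 it had 9.78 and 9.51.

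Glutaredoxins of the CC type, a plant-specific class of small thiol proteins known in nitrate and stress signalling, gave 3 members. AT5G18600 had 10.82 and 10.91 in ZAT10 against 9.34 and 9.24 in the control, and 5.52 and 6.03 in the cold against 8.33 and 8.02 in the warm. Its ZAT10 arrays were above every array of the 10 other lines, which ran up to 9.97. AT1G06830 had 9.83 and 9.46 in ZAT10 against 8.07 and 7.87 in the control, and a smaller cold difference, with 8.11 and 8.45 in the cold against 8.89 and 9.10 in the warm. AT2G30540 had 7.01 and 6.93 in ZAT10 against 6.14 and 5.94 in the control, and 6.18 and 6.56 in the cold against 7.29 and 7.46 in the warm. Closely related members of this family can share probe matches, and how far that touched these signals was not tested.

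Type-A response regulators are quickly induced by cytokinin and dampen its signal, and RR16 and ARR15 were both members. RR16 had 6.97 and 7.22 in ZAT10 against 5.97 and 6.23 in the control, and 5.60 and 5.91 in the cold against 6.96 and 7.08 in the warm. ARR15 was at a low signal, with 6.46 and 6.07 in ZAT10 against 4.96 and 4.82 in the control, and 4.87 and 5.01 in the cold against 6.01 and 5.77 in the warm. The cold arrays of ARR15 overlapped the control arrays of the lines, and those of RR16 lay just below them. Both placements carry the offset between the sets of arrays.

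Among 3 transcription factor genes, BHLH101, which acts in iron deficiency, was the least even between replicates. It read 6.42 and 5.23 in ZAT10 against 4.62 and 4.62 in the control, and 4.39 and 3.91 in the cold against 5.45 and 6.73 in the warm, so its replicates were over 1 apart in both of the higher groups. AT2G31730, of the bHLH family, had 8.74 and 8.93 in ZAT10 against 7.07 and 7.38 in the control, and 6.13 and 5.95 in the cold against 7.57 and 7.53 in the warm. AT1G68670, a GARP-type repressor of nitrate and phosphate starvation responses, differed least, with 7.56 and 7.55 in ZAT10 against 6.79 and 6.88 in the control, and 6.55 and 6.61 in the cold against 7.27 and 7.50 in the warm.

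The chaperone families held the largest cold difference of all members. AT4G21870, of the small heat shock protein (HSP20) type, had 3.90 and 4.60 in the cold against 8.40 and 8.39 in the warm, a difference of -4.14, and 9.58 and 9.55 in ZAT10 against 8.39 and 8.39 in the control. Its ZAT10 arrays exceeded all 20 arrays of the other lines. Fes1B, an exchange factor of HSP70, had 6.60 and 6.80 in ZAT10 against 5.79 and 5.80 in the control, and 4.85 and 5.30 in the cold against 6.35 and 6.48 in the warm. The other chaperone members, AT2G19310 (HSP20 type) and AT2G35795 (DnaJ type), were 0.74 and 0.81 higher in ZAT10 and had cold differences of -1.64 and -0.71.

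Signalling and protein turnover genes gave 7 members, with ZAT10 differences of 0.82 to 1.60. AT4G17245, of the RING finger family, had 7.34 and 7.36 in ZAT10 against 5.88 and 5.63 in the control, and 4.02 and 3.26 in the cold against 6.04 and 5.73 in the warm. AT4G27300, an S-locus-type receptor kinase gene, had 7.56 and 7.30 in ZAT10 against 6.11 and 5.92 in the control, and 6.13 and 5.94 in the cold against 7.48 and 7.50 in the warm. Its ZAT10 and warm arrays overlap, as do its cold and control arrays, though each of these pairs crosses the sets of arrays and carries their offset. AT1G23390, a kelch F-box protein that targets chalcone synthase of flavonoid synthesis for breakdown, had 8.99 and 9.35 in ZAT10 against 8.40 and 7.64 in the control, and 6.59 and 6.81 in the cold against 8.59 and 8.25 in the warm. CML30, calmodulin-like, was near the bottom of the scale in the cold, at 3.11 and 4.11 against 5.07 and 5.34 in the warm, and had 6.40 and 6.17 in ZAT10 against 5.59 and 5.11 in the control.

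Metabolic enzymes gave 9 members, 5 of which had both ZAT10 arrays above both warm WT arrays. The same held in 51 of all members and in 13.4% of eligible probe sets. This comparison crosses the sets of arrays and uses arrays that chose the members, so it carries no test. AT1G12010, of the ACC oxidases that make ethylene, had 7.81 and 8.16 in ZAT10 against 6.74 and 6.90 in the control, and 5.26 and 4.96 in the cold against 6.82 and 6.65 in the warm. AT5G44020, of the HAD acid phosphatase family, had 11.13 and 11.42 in ZAT10 against 10.26 and 10.06 in the control, and 7.47 and 7.60 in the cold against 9.80 and 9.62 in the warm. AT5G19120, of the aspartyl proteases, had 7.39 and 7.60 in ZAT10 against 5.48 and 6.44 in the control, and 4.02 in both cold arrays against 6.73 and 6.78 in the warm. These genes differ in how the 4 groups line up, since the cold arrays of all of them lie below the control arrays while the warm arrays of the phosphatase gene lie below the control as well.

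Several of the members with the largest differences have no role stated here beyond a family or a response. AT4G23680, of the Bet v 1 family of small ligand-binding proteins, had 9.21 and 8.88 in ZAT10 against 6.93 and 6.97 in the control, and 5.79 and 5.51 in the cold against 7.50 and 7.99 in the warm. AT1G49500 had 10.08 and 10.46 in ZAT10 against 8.64 and 8.67 in the control, and 6.02 and 6.16 in the cold against 8.75 and 8.77 in the warm. AT2G20670, of the DUF506 family, had 5.90 and 6.29 in ZAT10 against 4.67 and 5.07 in the control, and 3.75 and 3.33 in the cold against 5.59 and 5.09 in the warm. In all 3 the order of the group means was ZAT10, warm, control and cold. The place of warm above control carries the offset between the sets of arrays, and in AT1G49500 that difference was only 0.10. The chloroplast-encoded ndhD, a subunit of the plastid NDH complex and the 1 member from that genome, had 8.88 and 8.38 in ZAT10 against 7.81 and 7.85 in the control, and 7.49 and 7.42 in the cold against 8.34 and 8.42 in the warm.

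AT3G15450, whose transcript is known to accumulate when sugar is short, was the 1 member in a list of sugar starvation and dark-induced genes. It had 8.69 and 9.31 in ZAT10 against 7.29 and 7.57 in the control, and 6.44 and 5.73 in the cold against 7.65 and 7.89 in the warm. Of the 27 genes in that list 6 were named and tested. The cold and ZAT10 differences of AT3G15450 chose it, so the other 5 were counted without it. In the cold 0 of the 5 rose and 4 fell (limma, adjusted p under 0.05), with a median of -1.48, beside 14.1% and 13.1% of all 15916 tested probe sets and a median of -0.03 for all of them. In ZAT10 0 rose and 0 fell, with a median of -0.12, beside 2.53% and 2.12% of all tested probe sets and a median of 0.08. The genes that fell in the cold were AT4G27450 (-4.17), AKINBETA1 (-1.88), a subunit of the SnRK1 energy-sensing kinase, and MCCA (-1.48) and MCCB (-0.89), subunits of an enzyme of leucine breakdown. In ZAT10 their differences were -0.75, 0.36, -0.96 and -0.12.

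**Figure D2:**
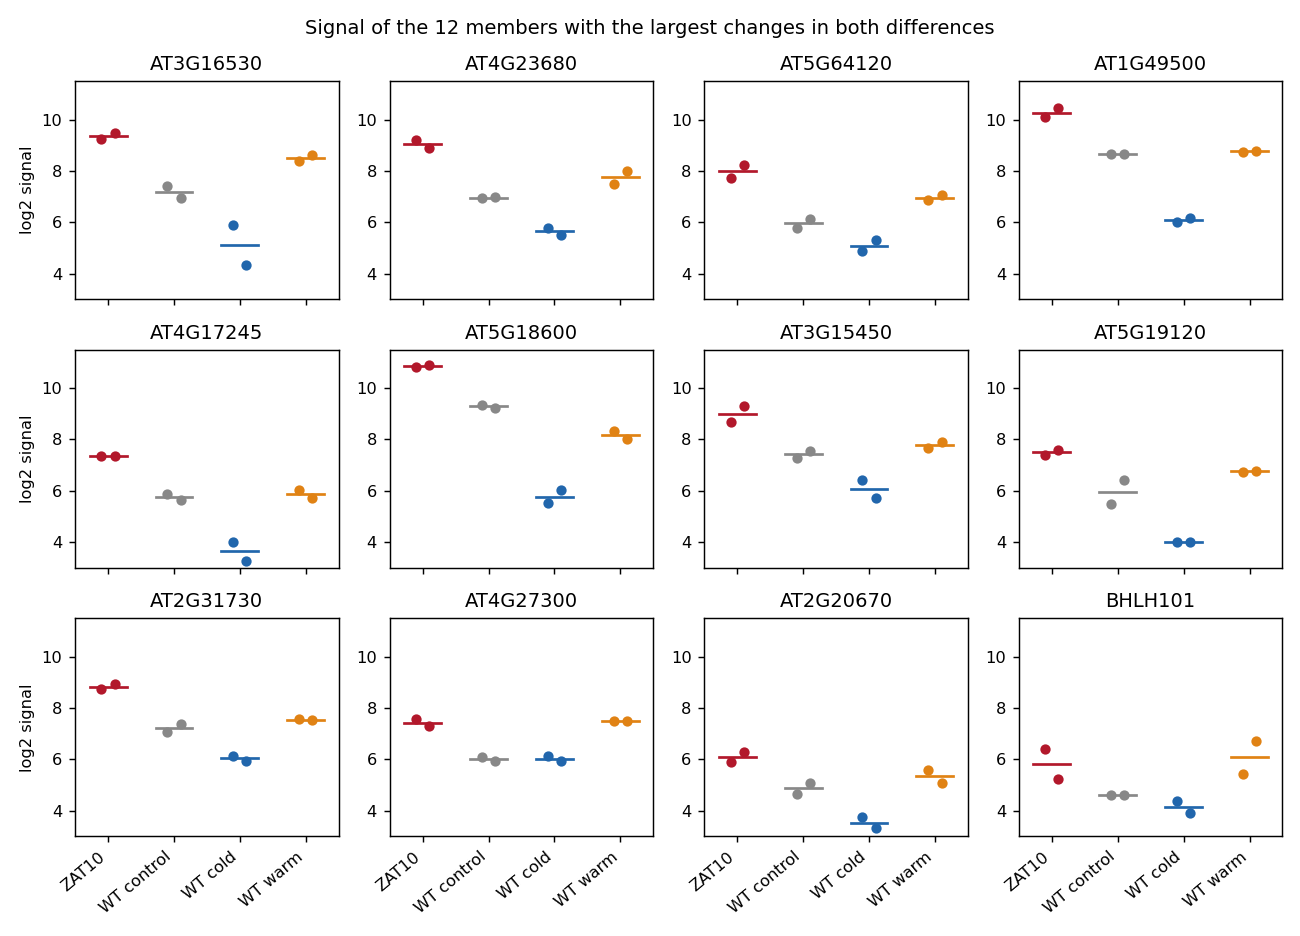
Log2 signal of the 12 members with the largest smaller-of-both differences, in the ZAT10 line, its WT control, WT cold and WT warm. Points are arrays (2 per group) and bars are means. The ZAT10 points are above the control points and the cold points below the warm points in each panel, which the choice of members sets, and the replicates of AT3G16530 in the cold and of BHLH101 in ZAT10 and in the warm lie over 1 apart.

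The rule sets no difference between the ZAT10 line and the warm WT of the cold experiment, but it used the arrays of both. The values in this paragraph are therefore shaped by the choice of members, also where they lie beside eligible probe sets, and carry no test. They also depend on the scale. As deposited, both ZAT10 arrays were above both warm arrays in 51 members (13.4% of eligible probe sets), below them in 14 (59.6% of eligible) and overlapping in 27. The median difference of ZAT10 minus warm was 0.28, beside -0.34 for eligible probe sets. The warm WT mean exceeded the WT control mean in 78 members, by a median of 0.77 beside 0.48 for eligible probe sets. After quantile normalization, which removes the offset between the sets of arrays, ZAT10 was above warm in 70 members and below in 5, with a median difference of 0.63 beside 0.04 for eligible probe sets. On that scale the warm minus control median was 0.27 beside 0.01 for eligible probe sets. The members' median signal was thus lower in the WT control than in the warm WT on both scales. The rule favours a low control and a high warm WT, so this difference is shaped by the choice of members. The WT groups and their sets of arrays also cannot be told apart. With all 4 warm-grown WT arrays as the reference for both differences, ZAT10 was higher in 90 members, by a median of 0.67, and cold was lower in 89, by a median of -0.81. This reference is made of the control and warm arrays of the rule, so these counts largely follow from the choice of members.

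In 17 members both ZAT10 arrays were above all 20 arrays of the other lines, as in 2.27% of eligible probe sets, and in 40 members the ZAT10 mean was the highest of the 11 lines, as in 8.57% of eligible probe sets. The 17 included AT5G18600, AT4G17245, AT2G31730, AT4G27300, AT2G20670, AT4G21870, AT5G58390 and AT1G06830. In 28 members both cold arrays were below all 26 arrays at 22°C, as in 5.06% of eligible probe sets. The cold arrays were below both WT control arrays in 58 members, as in 20.4% of eligible probe sets. All of these counts use arrays that chose the members, so they describe where the members lie and carry no test.

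In most other lines the members lay on both sides of the control. The median of the members' differences against the WT control was between 0.10 in CRF3 and 0.23 in MYB73 for 8 of the 10 lines, 0.47 in MYB44 and 0.85 in CZF1. A median near 0 does not mean small differences, since in HSFC1 they ran between -4.38 and 4.92. In CZF1 the eligible probe sets had a median of 0.47, in the same direction, and after quantile normalization the members' median was 0.36 beside 0.00 for eligible probe sets. Against the warm WT, which lies in the same set of arrays, the CZF1 median was 0.14. These differences share the control arrays with the rule, so the control's own level enters all of them, and in 13 members the control mean was below all 10 other lines, as in 8.24% of eligible probe sets.

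**Figure D3:**
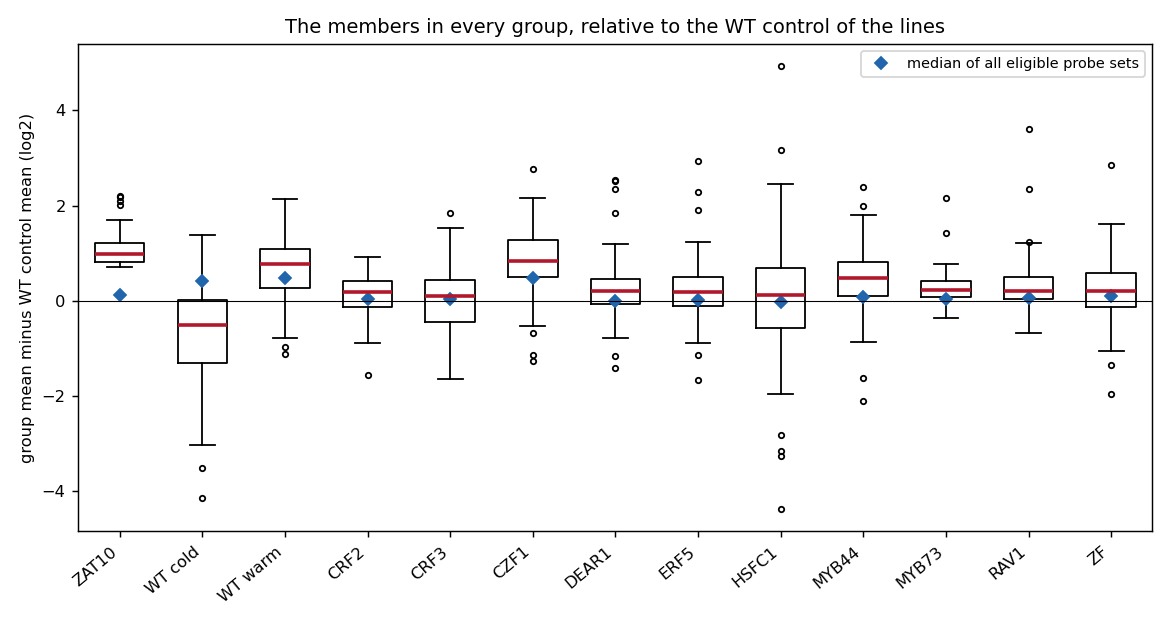
Mean log2 signal of each group minus the mean of the WT control, for the 92 members. Red lines are medians, boxes run between quartiles, whiskers reach the last value within 1.5 box lengths, circles lie beyond, and blue diamonds are medians of all eligible probe sets. ZAT10 (median 0.99) and CZF1 (0.85) have the highest medians, cold the lowest (-0.51), and HSFC1 the widest spread.

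The 20 arrays of the 10 lines other than ZAT10 were not used to choose the members, and the differences tested below are between them alone, while the spread was pooled over all 28 arrays. A moderated F test among these lines found differences in 78 of 92 members (84.8%), beside 58.3% of eligible probe sets and 56.5% of all tested. Leaving out the CZF1 arrays, an alternative added after the data were seen, gave 53 of 92 members (57.6%), beside 30.2% of eligible probe sets. A fit of the 20 arrays alone, with their own spread and 10 residual degrees of freedom, gave 51 of 92, beside 36% of eligible probe sets. In that fit the calls below were 28 in HSFC1, 8 in MYB44 and 6 in CRF3 and ZF. ERF5 had 3, DEAR1 2, and CRF2, MYB73 and RAV1 0. HSFC1 had 8 higher and 20 lower, beside 5.45% and 8.75% of eligible probe sets, and MYB44 6 and 2, beside 0.292% and 0.99%. CRF3 had 0 and 6, beside 4.53% and 3.34%, and ZF 3 and 3, beside 4.2% and 3.44%. ERF5 had 2 and 1, beside 0.503% and 1.18%, and DEAR1 1 and 1, beside 0.0487% and 0.341%. CZF1 had 36 and 4, beside 40.3% and 1.28%. The range of the 10 line means was 1.70 on the log2 scale for the median member, and between 0.54 and 5.84 for single members. This range includes CZF1 with the offset of its set and CRF3 with its uneven replicates. It was not computed for eligible probe sets. By the F test many members varied among lines that overexpress other factors, and not all in the same direction. When each line was set against the mean of the other 9, 38 members (41.3%, beside 25.8% of eligible probe sets) were higher in at least 1 line and lower in another. With the CZF1 calls left out these were 19 members, beside 11.7% of eligible probe sets.

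HSFC1, of class C of the heat shock factors, had the largest differences, with AT1G66100 lowest and AT4G23680 highest. Of 92 members 26 were lower there (28.3%, beside 13.2% of eligible probe sets) and 9 higher (9.78%, beside 6.78%). Without the CZF1 arrays the counts were 20 lower and 10 higher, beside 9.41% and 7.40% of eligible probe sets. Without HSFC1 replicate 1 the count of both directions was 13 instead of 35. The GAPDH 3' minus 5' differences were 1.63 and 1.78 in the HSFC1 arrays and 2.04 and 1.81 in the CRF3 arrays, beside 0.86 to 1.86 in the other 8 lines, and their part in these calls was not tested. AT1G66100, the thionin gene, had 2.43 and 5.95 in HSFC1 against a mean of 8.83 over the other 9 lines, a difference of -4.64 ± 0.54 (SE, adjusted p = 5.2e-06, limma), with its HSFC1 replicates more than 3 apart. AT3G16670 had 4.27 and 6.21 against a mean of 9.18, a difference of -3.94 ± 0.41 (adjusted p = 1.17e-06). EXPA8 had 3.23 and 4.64 against a mean of 6.90, a difference of -2.96 ± 0.46 (adjusted p = 0.000119). All of these were higher in ZAT10 than in its control, which the choice of members sets, and lower in HSFC1 than in the mean of the other 9 lines.

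Of the 9 members that rose in HSFC1, 2 were over 3 above the other lines and 7 were 0.72 to 1.04 above them. AT4G23680, the Bet v 1 family gene, had 12.03 and 11.72 in HSFC1 against a mean of 7.76 in the other 9 lines, a difference of 4.11 ± 0.42 (SE, adjusted p = 9.35e-07). The HSFC1 arrays were above its ZAT10 arrays at 9.21 and 8.88 too. AT1G73040, of the jacalin-related lectins, had 8.17 and 8.42 in HSFC1 and between 3.78 and 5.51 in all 18 arrays of the other lines, a difference of 3.42 ± 0.26 (adjusted p = 1.94e-08). In ZAT10 it had 5.83 and 6.14 against 5.33 and 4.93 in the control. DELTA-OAT, the ornithine aminotransferase of arginine and proline metabolism, was 1.04 ± 0.28 higher in HSFC1 (adjusted p = 0.0111). In the secreted group, assigned once the members were known, 8 of 14 members fell and 2 rose in HSFC1. Of eligible probe sets 13.2% were lower there and 6.78% higher, and the group was not tested against other members.

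Of the 3 glutaredoxin and 2 response regulator genes, 2 of each fell in HSFC1, where 13.2% of eligible probe sets were lower. In MYB44, a factor known in abscisic acid and stress responses, 2 glutaredoxin genes and 1 response regulator gene rose. Of eligible probe sets 1.56% were higher in MYB44. AT1G06830 fell in HSFC1 to 5.36 and 4.96, against a mean of 7.91 in the other 9 lines (-2.75 ± 0.45), and AT5G18600 to 7.96 and 8.02, against 8.96 (-0.97 ± 0.21). RR16 fell there by 1.36 ± 0.30, with arrays at 4.58 and 5.81, and ARR15 by 0.68 ± 0.22, with arrays at 5.24 and 3.95. In MYB44 AT5G18600 rose to 9.52 and 9.97, against a mean of 8.76 in the other 9 lines (0.98 ± 0.21), AT2G30540 to 8.47 and 8.38, against 6.67 (1.75 ± 0.26), and ARR15 to 6.09 and 6.16, against 5.11 (1.02 ± 0.22). RR16, with 6.44 and 7.58, and AT1G06830, with 8.37 and 8.5, did not pass in MYB44. AT2G30540 did not pass in HSFC1, where it had 7.64 and 7.28 against a mean of 6.78 in the other 9 lines. The adjusted p-values of these HSFC1 calls lay between 0.0002 and 0.0353, and those of the MYB44 calls between 0.001 and 0.0148. These 7 calls were singled out by role after their values were seen, apart from AT2G30540 in MYB44, which is among the largest there.

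In MYB44 9 members were higher (9.78%, beside 1.56% of eligible probe sets) and 3 lower (3.26%, beside 2.50%). AT1G20070 had 8.47 and 8.44 in MYB44 against a mean of 6.63 in the other 9 lines, a difference of 1.82 ± 0.31 (SE, adjusted p = 0.00267), and AT3G16670 10.49 and 10.29 against 8.61 (1.78 ± 0.41, adjusted p = 0.0193). The 3 lower members were AT5G64120 (-3.32 ± 0.64, adjusted p = 0.00687), AT4G16260 (-2.12 ± 0.55, adjusted p = 0.0343) and AT4G29700, of a nucleotide pyrophosphatase family (-1.91 ± 0.17, adjusted p = 3.03e-06). AT4G16260 had 8.19 and 5.64 in MYB44, on both sides of its WT control arrays at 7.49 and 8.04. Its means in CRF3, DEAR1, ERF5, HSFC1 and MYB73 were 9.61 to 10.22, above that control, and these lines enter the mean it was set against. The peroxidase gene AT5G64120 had its lowest arrays of all lines in MYB44, at 4.33 and 3.41. The total of 12 calls in MYB44 was 7 without its replicate 1, 3 without its replicate 2 and 22 without the CRF3 arrays.

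CRF3 had 17 members lower (18.5%, beside 12.5% of eligible probe sets) and 2 higher (2.17%, beside 10.9%). Its replicates were the least alike of all groups, with a root mean square SD of 0.99 over members beside 0.21 in ZAT10 and 0.23 in the WT control. Without CRF3 replicate 1 the count was 47 and without replicate 2 it was 0. AT3G16670 had 7.83 and 5.68 in CRF3 against a mean of 9.01 in the other 9 lines, a difference of -2.25 ± 0.41 (SE, adjusted p = 0.00395), AT1G14120, of the oxygenase family that inactivates auxin, a difference of -1.71 ± 0.42, and AT3G56060 one of -1.50 ± 0.34. The 2 higher members were AT2G01540 (0.82 ± 0.26) and AT5G57000 (0.49 ± 0.17). AT5G64120 shows how far the replicates parted, with 5.56 and 9.0 in CRF3.

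**Figure D4:**
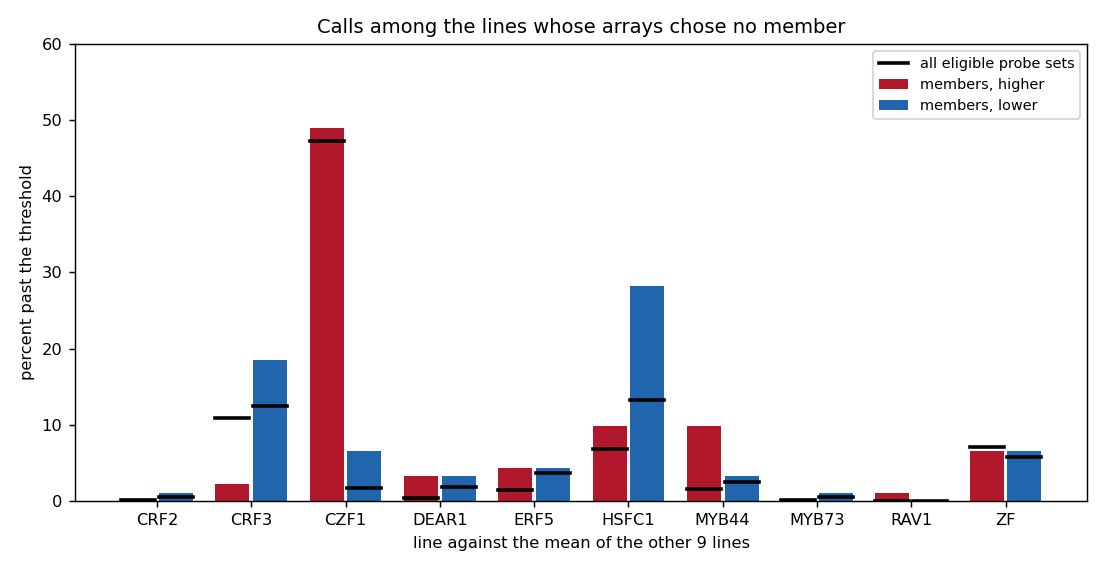
Percent of the 92 members higher (red) or lower (blue) in each line than in the mean of the other 9 lines (limma, adjusted p under 0.05), with black bars for the same percent of all eligible probe sets. HSFC1 has 28.3% of members lower beside 13.2% of eligible probe sets, MYB44 has 9.78% higher beside 1.56%, and in CZF1 the high percent of members (48.9%) lies beside one of 47.2%.

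The zinc finger line ZF had 6 members higher and 6 lower (6.52% each, beside 7.12% and 5.73% of eligible probe sets). Both shares are near those of eligible probe sets. AT5G64120 had 8.94 and 8.68 in ZF against a mean of 6.64 in the other 9 lines (2.17 ± 0.64, adjusted p = 0.0359), AT4G22490, of the lipid transfer proteins, was 1.88 ± 0.26 higher (adjusted p = 0.000261), and AT2G38870, the proteinase inhibitor, had 11.58 and 11.70 against 10.23 (1.41 ± 0.17, adjusted p = 0.000112). AT1G66100 was lower, at 7.09 and 6.11 against 8.57 (-1.97 ± 0.54, adjusted p = 0.0251), as were AT4G16260, at 7.14 and 7.05 (-1.92 ± 0.55, adjusted p = 0.0292), and AT3G01490, a Raf-like kinase gene (-1.08 ± 0.27, adjusted p = 0.0141). For AT4G16260 the mean of the other 9 lines was 9.02, itself above the WT control arrays at 7.49 and 8.04, and ZF minus control was -0.67. Without either ZF replicate the 12 calls became 2, and without the CRF3 arrays they became 25.

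ERF5, an ethylene response factor, and DEAR1, of the DREB and EAR-motif class, shared the lectin gene AT3G16530 as their largest rise. It had 10.07 and 10.16 in ERF5 against a mean of 7.57 in the other 9 lines (2.54 ± 0.43, adjusted p = 0.00338), and 10.87 and 8.53 in DEAR1 against 7.62 (2.08 ± 0.43, adjusted p = 0.0166). In ERF5 4 members were higher and 4 lower (4.35% each, beside 1.40% and 3.59% of eligible probe sets). AT3G16670 (2.11 ± 0.41) and AT4G27300 (0.73 ± 0.17) were higher there, and AT4G22490 (-1.18 ± 0.26), AT1G68670 (-0.95 ± 0.16) and AT3G19810 (-0.75 ± 0.17) lower. In DEAR1 3 members were higher and 3 lower (3.26% each, beside 0.308% and 1.77%). AT1G14120 (1.96 ± 0.42) and AT4G29700 (1.20 ± 0.17) were higher, and AT2G38870 (-1.85 ± 0.17, adjusted p = 9.86e-06), AT1G20070 (-1.46 ± 0.31) and AT4G14615 (-0.77 ± 0.16) lower. The 8 calls in ERF5 became 2 without its replicate 1, 1 without its replicate 2, and 21 or 20 without CRF3 replicate 1 or 2. The 6 calls in DEAR1 became 12 without CRF3 replicate 1.

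Few members stood apart in the remaining lines of the same set of arrays. CRF2 had 1 lower member, AT3G19810 (-1.04 ± 0.17, adjusted p = 0.0107), MYB73 had 1 lower, AT2G40110 (-0.997 ± 0.22, adjusted p = 0.0453), and RAV1 had 1 higher, AT4G29700 (0.92 ± 0.17, adjusted p = 0.0428). Of eligible probe sets 0.536% were lower in CRF2, 0.487% lower and 0.0487% higher in MYB73, and 0.0162% higher and 0% lower in RAV1. No member was higher in CRF2, where 0.114% of eligible probe sets were. The MYB73 call was absent after the CZF1 arrays were left out, and the RAV1 count was 0 in the fit with replicate number as a block. Without CRF3 replicate 1 or 2 the counts were 9 and 10 in CRF2, 6 and 3 in MYB73, and 3 and 2 in RAV1.

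CZF1 had 45 members higher (48.9%, beside 47.2% of eligible probe sets) and 6 lower (6.52%, beside 1.62%). Because its arrays belong to the set with higher medians, line and set cannot be told apart in these counts, and after quantile normalization the total was 20 instead of 51. The largest rises were AT5G64120 (2.09 ± 0.64), the lipid transfer protein gene AT1G62500 (2.01 ± 0.57) and AT3G16670 (1.95 ± 0.41). Against the warm WT of the same set the CZF1 differences of these genes were 1.78, -0.01 and 0.56. The largest falls were AT4G30450 (-1.42 ± 0.27), AT1G73040 (-0.85 ± 0.26) and AT5G18600 (-0.79 ± 0.21). Against the warm WT these were -0.29, -1.94 and -0.02, and the warm WT itself differed from the WT control by -0.98 in AT4G30450 and -1.11 in AT5G18600.

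**Figure D5:**
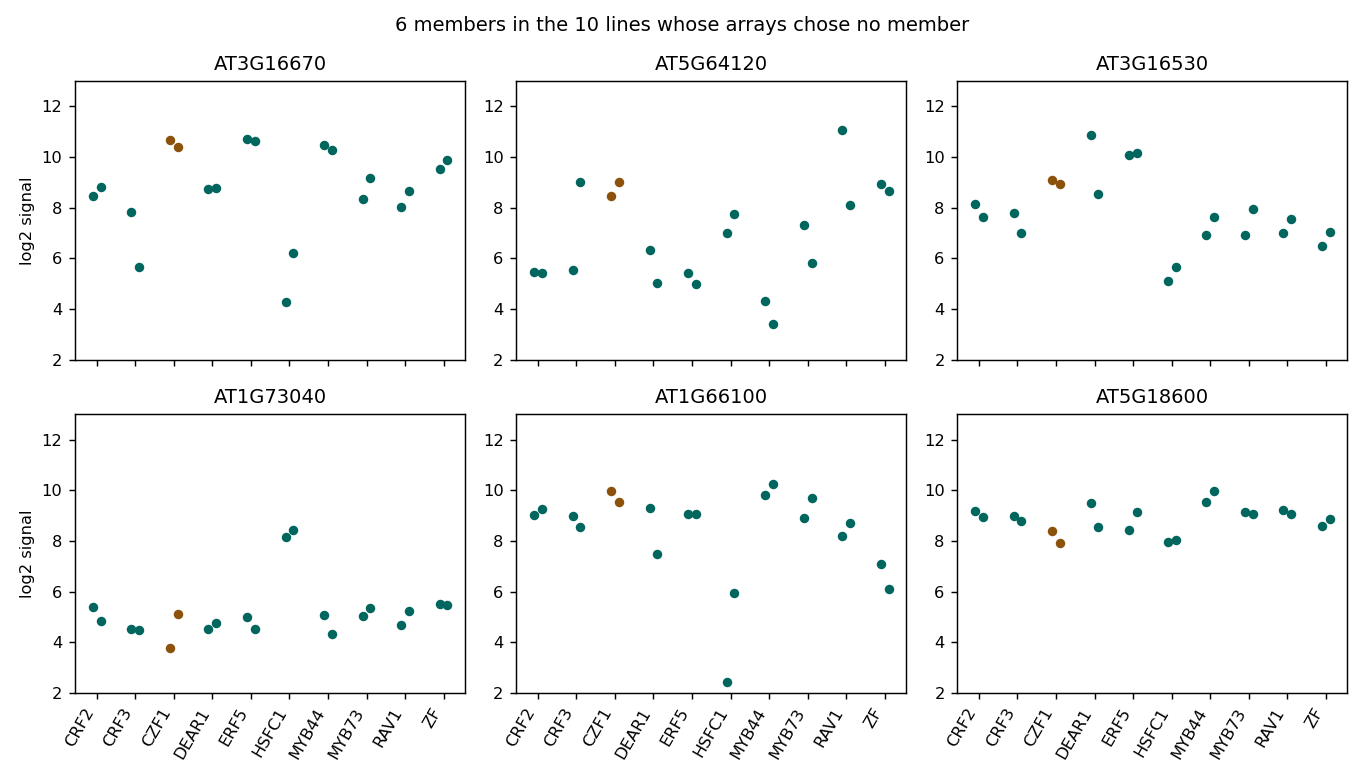
Log2 signal of 6 members, picked after their values were seen, in the 2 arrays of each line other than ZAT10 (each point 1 array, CZF1 in brown). AT3G16670 and AT1G66100 are lowest in HSFC1, AT1G73040 is highest in HSFC1, AT5G64120 is lowest in MYB44, and AT3G16530 is high in ERF5 and in 1 of the DEAR1 arrays.

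Calls fell in every role group. Of the 14 secreted wall and defence genes 13 were called in at least 1 line other than CZF1, and AT3G16670, AT5G64120, AT3G16530, AT4G22490, AT2G38870 and AT1G73040 were each higher in at least 1 of these lines and lower in another. Of eligible probe sets 49.7% were called in at least 1 such line. In such a line 4 of the 7 signalling genes, 5 of the 9 enzymes, 2 of the 3 transcription factors, and all of the 4 chaperone genes, 3 glutaredoxins and both response regulators were called. No test of the difference between role groups was made.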

How the data were processed

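RNA of aerial parts was amplified, labelled and hybridised to single-colour oligonucleotide arrays, per the labels' protocols. The authors' deposited table holds 1 column of log2 signals per array, from a lowest value of 2.13 to 14.94. GCRMA and limma are named per the submitters' processing notes, without their role or versions, and how arrays were centred is not stated in any source used. A signal near the lowest value bounds a difference rather than measuring it.

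Groups came from the sample labels. The MYB44 and MYB73 arrays carry titles reading MYB4 and MYB7, and their source names were followed. The members and gene lists were chosen with earlier results of these data known. Gene names came from the platform annotation and the RefSeq gene table. No coordinates are given because the files name no genome build, and promoter sequences were not analysed here.

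Group means of all 28 arrays were fitted in R 4.3.3 by lmFit and eBayes of limma 3.58.1 (14 residual degrees of freedom) over the 15916 probe sets with log2 over 4 in at least 2 arrays, all 92 members among them. Adjusted p-values are Benjamini-Hochberg values over those probe sets with a threshold of 0.05. The differences that chose the members were not tested in them. The tests compared the 10 lines other than ZAT10, with the spread pooled over all 28 arrays, as a moderated F test and as each line minus the mean of the other 9. In data simulated for HSFC1 against the other 9 lines, an added change of 1 was recovered in 72% of cases and one of 2 in 95%, with 5 false calls among 15916. The simulation gave every group the same spread and the other lines no differences. The real groups spread unequally, with a root mean square SD over members of 0.99 in CRF3 and 0.21 in ZAT10. These rates therefore check the fit and do not give the error rate of these data.

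Values are given for the 12 members with the largest smaller-of-both differences, for up to 3 called members each way per line, for members in a gene list, for the 3 probe sets on either side of each limit, and for the ZAT10 transgene. Other members were named by role after their values were seen. The alternatives were other limits and levels, quantile normalization, all 4 WT arrays as reference, no filter, a fit of the lines alone, a replicate block, and leaving out arrays. Same-numbered replicates did not deviate together (correlations between -0.35 and 0.18 over 91 pairs of groups), so the numbers were not taken to pair samples.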

Additional observations from a re-analysis of the deposited data

Results flagged for a closer look

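The members below differed between lines in opposite directions. They are the 14 of 19 such members that the rule on named genes covers. Each was above the mean of the other 9 lines in 1 line and below it in another, apart from CZF1, both past the threshold, and the difference between its highest and lowest such line was tested directly in limma. The lines were picked because they were the highest and lowest of those past the threshold, so the p-values are smaller than for a pair chosen in advance. With 2 arrays in a group, samples far from the rest of their group were not tested for, and the root mean square SD over members was 0.99 in CRF3, beside 0.21 to 0.58 in the other groups.

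The largest difference was in AT3G16670, 5.44 ± 0.55 higher in ERF5 than in HSFC1 (SE, adjusted p = 1.43e-06), followed by the peroxidase gene AT5G64120, 4.94 ± 0.86 higher in ZF than in MYB44 (adjusted p = 0.00257), and the lectin gene AT3G16530, 4.74 ± 0.57 higher in ERF5 than in HSFC1 (adjusted p = 1.52e-05). The mean of AT5G64120 was higher in RAV1 (arrays 11.07 and 8.09) than in ZF, but RAV1 did not pass the threshold for it. The jacalin-related lectin gene AT1G73040 was 3.79 ± 0.35 higher in HSFC1 than in CRF3, and AT1G14120 of auxin oxidation 3.31 ± 0.56 higher in DEAR1 than in CRF3. AT4G22490, a lipid transfer protein gene, was 2.96 ± 0.35 higher in ZF than in HSFC1. The proteinase inhibitor gene AT2G38870 was 2.93 ± 0.23 higher in ZF than in DEAR1, and AT1G20070 was 2.95 ± 0.41 higher in MYB44 than in DEAR1. AT4G29700 was 2.80 ± 0.22 higher in DEAR1 than in MYB44, and the kinase gene AT3G01490 was 2.36 ± 0.36 higher in MYB44 than in ZF. Smaller differences were 1.64 ± 0.23 in AT3G19810 (ZF minus CRF2), 1.51 ± 0.21 in the GARP factor gene AT1G68670 (HSFC1 minus ERF5), 1.22 ± 0.21 in AT4G14615 (ZF minus DEAR1) and 0.94 ± 0.23 in AT5G57000 (CRF3 minus HSFC1). The part of the CRF3 spread in the CRF3 values was not tested.

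Outside the named genes, 89 probe sets had the same combination of values. Of these 81 have no gene in the annotation used here and 8 have several. Their ZAT10 minus control differences had a median of 0.96 and reached 3.33, and their cold minus warm differences had a median of -1.25 and reached -7.18, beyond the -4.14 of any member.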

How the results depend on the processing

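With a limit of 1 in both differences 30 members were left, after quantile normalization 61 (60 of them among the 92), and with the mean of the 4 warm-grown WT arrays as reference 54 (36 among the 92). A level limit of 6 gave 72 and no level limit 108. Leaving out 1 array gave 86 to 120, of which 76 to 87 were among the 92. Of 240 values of the 12 members under alternatives, 224 moved by less than 1 SD and 0 changed sign. Most of these alternatives left out 1 array of a group, which cannot move a difference beyond that SD. Leaving out 1 array also cannot change a sign, since the compared arrays of members do not overlap. Both counts were therefore largely set in advance and do not measure stability. Only quantile normalization and the reference of 4 WT arrays could move a value further.

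The F test, with 78 members in all arrays, gave 51 in a fit of the 20 line arrays alone and 62 to 86 with 1 array left out. Calls per line in the fit of the 20 arrays were 0 in CRF2, MYB73 and RAV1, 6 in CRF3 and ZF, 2 in DEAR1 and 3 in ERF5. With no filter they were 9 in CRF3, 5 in ZF and 0 in MYB73 and RAV1. After quantile normalization CZF1 had 20 and MYB73 had 0. With the replicate block MYB73 and RAV1 had 0, and no other count of calls moved by over 1.5 times. Without the CRF3 arrays CRF2 had 11, DEAR1 10, ERF5 20, MYB44 22, MYB73 3, RAV1 2 and ZF 25. Without the CZF1 arrays, added after the data were seen, CRF3 had 12, ERF5 5 and MYB73 0. Without the HSFC1 arrays, also added then, MYB73 and RAV1 had 0. With 1 array left out at a time the ranges were 1 to 10 in CRF2, 0 to 47 in CRF3, 19 to 59 in CZF1, 6 to 12 in DEAR1, 1 to 21 in ERF5, 13 to 47 in HSFC1, 3 to 31 in MYB44, 0 to 6 in MYB73, 0 to 3 in RAV1 and 2 to 24 in ZF. Leaving out either CRF3 array raised the counts of most other lines, MYB44 to 31 and 21 and ZF to 23 and 24, and leaving out DEAR1 replicate 1 gave MYB44 21. Counts fell most without an array of the line itself, in HSFC1 to 13 (replicate 1) and in CZF1 to 19 and 28. The causes were not tested.

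Of 44 named line calls, 12 kept their call under every alternative and 0 changed sign. AT2G40110 in MYB73, AT5G57000 in CRF3 and AT4G29700 in RAV1 lost it most often, in 21, 21 and 18 alternatives. Precision is limited by having 2 arrays in a group.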

Other observations

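Other gene lists chosen for seedlings in cold and changed light held 0 members. Of 4 clock genes tested, 2 rose in ZAT10 over its control, GI (1.77, adjusted p = 0.000932), which carries light and temperature signals to the clock, and CCL (1.32, adjusted p = 0.0119). In the cold 3 of the 4 rose over the warm, COR27 (4.18), GI (2.85) and COR28 (2.48), beside 14.1% of all tested probe sets. GI therefore rose in both comparisons. Of 2 starch breakdown genes, DPE1 fell in ZAT10 (-1.32, adjusted p = 0.0498) and PWD rose in the cold (0.71). In ZAT10 0 of 5 autophagy genes outside the ATG8 family passed, with a median of 0.34, and in the cold ATG4B fell (-0.51). Of 2 senescence genes tested and 3 root markers, 0 passed in either comparison, and of 3 leaf photosynthesis genes LHCB4.2 (-1.98) and RCA (-0.64) fell in the cold. At most 6 genes of any list had a probe set of 1 named gene in the annotation used here, so these counts describe few genes of each pathway.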
